A study of Mus musculus with 12 samples.

Results

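Cathepsins are proteases of lysosomes and related granules, and the 10 genes described here are Ctsa, Ctsb, Ctsc, Ctsd, Ctse, Ctsf, Ctsh, Ctss, Ctsw and Ctsz. They are 10 of the 19938 genes tested. The symbols were chosen with earlier results of these data known, and the probe set of each was selected by its mean level over the 12 arrays. Each symbol had only 1 probe set with that single symbol, so this level decided nothing between probe sets. Counts among the 10 genes are therefore a description and not independent evidence of a direction.

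The livers came from C57Bl/6J mice, an inbred strain, which were injected by vein at 10 weeks of age and studied in the fed state 7 days later. The 6 sh Grb14 mice received an adenovirus that expresses a short hairpin RNA against Grb14, an adapter protein that binds and inhibits the insulin receptor. The 6 sh scramble mice received the same kind of virus with a control hairpin, so both groups carry adenovirus, and livers without virus were not analysed here. Each mouse gave 1 Affymetrix array of whole liver, with log2 expression values for 35556 probe sets.

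Cathepsins are named by letter and not by mechanism. Most are cysteine proteases of the papain family, Ctsd and Ctse encode aspartic proteases, and Ctsa encodes a serine carboxypeptidase. They are made as inactive precursors, most are tagged with mannose 6-phosphate in the Golgi apparatus, and they are cut to their active form in the acid interior of the lysosome. In liver, hepatocytes and Kupffer cells both hold large lysosomal systems, while several cathepsins are best known from cells of the immune system.

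Among the 10 genes 8 were higher in sh Grb14 livers, Ctsf was lower and Ctsh did not pass the test. The differences reached from a log2 difference of 1.998 for Ctss to -0.72 for Ctsf, with a median of 0.84. Of all genes tested, 65.3% passed (limma with Benjamini-Hochberg adjustment over all genes, adjusted p under 0.05), 25.8% higher and 39.5% lower in sh Grb14 livers, and their median difference was -0.10. At least 2-fold higher were 5 of the 10 genes, against 6.37% of all genes. The groups of 6 mice did not overlap for 9 of the 10 genes, against 41.2% of all genes.

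The promoters of 6 of the 10 genes were matched in a RefSeq table of build GRCm38.p6, with 2 promoters for Ctsa. Each window runs from 250 bases before to 50 bases after an annotated start. Of 32851 promoters of that length, 7.15% hold CACGTG on either strand and 0.974% hold the longer TCACGTGA, which contains it. These letters are the core of the element bound by TFEB, the regulator of lysosomal genes. The longer form stands in 1 Ctsa promoter and in the Ctsd promoter, and CACGTG alone is found in the Ctsf promoter. A further 3.20% hold GAGGAAGT, a form of the site of the myeloid factor PU.1, among them those of Ctss and Ctsc, and 8.30% hold TTCNNNGAA, a form of the site of STAT proteins, among them that of Ctsc. Matches are letters in a window and were not tested as binding sites, and the motifs were chosen with the expression results known.

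Shown are the promoters of Ctsd and Ctsa, with each TCACGTGA in capitals, and that of Ctss, with GAGGAAGT in capitals as its reverse complement. They carry the longest lysosomal match and the match of the gene that differed most.
Ctsd, chr7:142387778-142388077, minus strand: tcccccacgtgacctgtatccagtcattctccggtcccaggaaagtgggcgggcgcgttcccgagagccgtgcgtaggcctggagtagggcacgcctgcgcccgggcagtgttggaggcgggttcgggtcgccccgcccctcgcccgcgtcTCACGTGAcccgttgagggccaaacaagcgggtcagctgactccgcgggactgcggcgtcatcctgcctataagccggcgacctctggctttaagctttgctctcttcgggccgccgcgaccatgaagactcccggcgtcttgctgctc
Ctsa, chr2:164833523-164833822, plus strand: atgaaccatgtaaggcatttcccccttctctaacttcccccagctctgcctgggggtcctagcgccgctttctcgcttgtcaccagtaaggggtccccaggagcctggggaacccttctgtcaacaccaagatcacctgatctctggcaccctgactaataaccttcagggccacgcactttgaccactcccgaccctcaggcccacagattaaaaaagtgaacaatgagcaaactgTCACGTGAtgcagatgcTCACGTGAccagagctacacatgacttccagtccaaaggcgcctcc
Ctss, chr3:95526536-95526835, plus strand: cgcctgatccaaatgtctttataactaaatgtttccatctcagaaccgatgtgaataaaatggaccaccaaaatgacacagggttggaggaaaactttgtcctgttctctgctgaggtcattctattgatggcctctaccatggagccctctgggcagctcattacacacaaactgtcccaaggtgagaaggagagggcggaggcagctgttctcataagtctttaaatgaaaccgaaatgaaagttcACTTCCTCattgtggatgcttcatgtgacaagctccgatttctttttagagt
In Ctsd the match begins at base 152 of the window, in Ctsa matches begin at bases 238 and 255, and in Ctss the match begins at base 249. Ctsd and Ctsa share the longer match, and their log2 differences were 1.07 and 0.27.

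Grb14 itself, the target of the hairpin, was lower in all 6 sh Grb14 livers, at 8.24 ± 0.13, against 10.15 ± 0.063 in sh scramble livers (log2 level, SD, n = 6 each). Array medians lay between 7.06 and 7.17 and the lower quartiles between 5.69 and 5.83. No detection call was made, so levels near or below these quartiles may be background. Across genes, 2 arrays of 1 group correlated with r of 0.991 to 0.998, and 2 arrays of different groups with r of 0.940 to 0.959. Nothing in the labels gives a hybridisation batch. The labels number the sh scramble mice 49 to 54 and the sh Grb14 mice 55 to 60. An effect of this order could not be told apart from that of the hairpin. The labels call the animals separate mice, so p-values measure the spread between mice. Hepatocyte markers had a mean level above 12 on every array, although 10 of the 11 measured were lower in sh Grb14 livers, against 39.5% of all genes. Alb, the main plasma protein of hepatocytes, was the one not past the test. It averaged 13.95 ± 0.037 in sh Grb14 livers and 13.92 ± 0.024 in sh scramble livers (log2 level, SD, n = 6 each). Alb was lower by the scaling on the genes tested (log2 difference -0.11, adjusted p = 0.00444). Its levels were near the top of the scale (highest value on any array 14.24), where differences can be compressed.

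**Figure D1:**
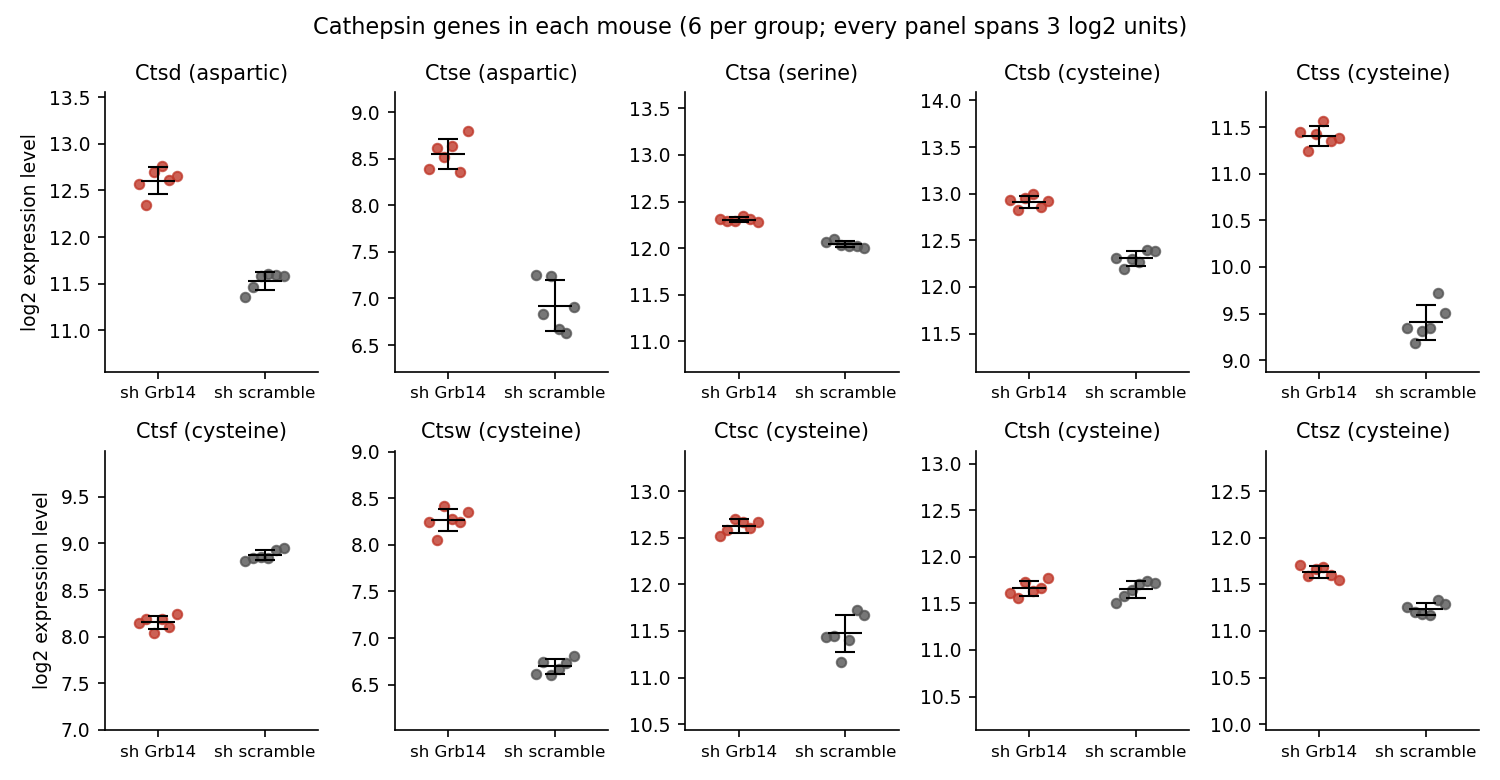
Each panel plots the log2 expression level of 1 cathepsin gene in 6 sh Grb14 mice (red) and 6 sh scramble mice (grey), with the mean and SD in black, and every panel spans the same range. Only Ctsh shows overlapping groups, and Ctsf is the one gene whose sh Grb14 mice all lie below the sh scramble mice.

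The aspartic proteases both rose. Ctsd, the main aspartic protease of lysosomes in most cells, had log2 levels of 12.35 to 12.76 (median 12.63) in sh Grb14 livers and 11.35 to 11.61 (median 11.58) in sh scramble livers. The lowest sh Grb14 mouse was well above the highest sh scramble mouse. The log2 difference was 1.07 (SE 0.062), or 2.11-fold (limma adjusted p = 1.33e-10, exact permutation p = 0.00216). This exact p is the smallest that 6 mice against 6 can give.

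Ctse, which encodes a protease of endosomes known from gastric epithelium and immune cells, had levels of 8.36 to 8.80 (median 8.56) in sh Grb14 livers and 6.63 to 7.25 (median 6.87) in sh scramble livers. All 6 sh Grb14 mice lay above all sh scramble mice, and the sh scramble mice had the widest spread of any of the 10 genes, with an SD of 0.27. The log2 difference was 1.63 (SE 0.11), or 3.09-fold (limma adjusted p = 1.15e-09). The sh scramble median of 6.87 was below the array medians, where differences can be understated.

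Ctsa, the serine carboxypeptidase that also protects beta-galactosidase and neuraminidase in a complex, rose least. Its levels were 12.28 to 12.34 (median 12.31) in sh Grb14 livers and 12.01 to 12.10 (median 12.03) in sh scramble livers. Both groups were tight, so that a log2 difference of 0.27 (SE 0.028), or 1.20-fold, left no overlap (limma adjusted p = 2.94e-07). Genes of its partners, named here after the values were seen, rose too: Glb1, the beta-galactosidase, by 0.64 (SE 0.057), and Neu1, the neuraminidase, by 0.25 (SE 0.047). Neu1 had a limma adjusted p of 0.000193, but of 0.0662, with a difference of 0.10, when arrays were centred on the median of the genes tested.

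Ctss showed the greatest difference of the 10 genes. It encodes an endopeptidase of antigen-presenting cells that stays active at neutral pH and trims the invariant chain from class II molecules. Levels were 11.24 to 11.56 (median 11.40) in sh Grb14 livers and 9.19 to 9.72 (median 9.35) in sh scramble livers. Every sh Grb14 mouse stood more than 1 log2 unit above every sh scramble mouse. The log2 difference of 1.998 (SE 0.075) equals 3.995-fold (limma adjusted p = 7.75e-13), and 2.04% of all genes had a larger absolute difference. 

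Ctsw, expressed mainly in cytotoxic T cells and NK cells, had levels of 8.05 to 8.42 (median 8.26) in sh Grb14 livers and 6.61 to 6.81 (median 6.70) in sh scramble livers. The groups lay apart, and a log2 difference of 1.57 (SE 0.064), or 2.97-fold, was measured (limma adjusted p = 1.95e-12). The sh scramble levels were below the array medians, where differences can be understated.

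Ctsb, an abundant lysosomal endopeptidase that also removes dipeptides from the C-terminus, had levels of 12.82 to 12.99 (median 12.93) in sh Grb14 livers and 12.19 to 12.39 (median 12.30) in sh scramble livers. No mice overlapped, and the log2 difference was 0.61 (SE 0.040), or 1.52-fold (limma adjusted p = 7.78e-10). Levels of this height are near the top of the scale (highest value on any array 14.24), where differences can be compressed, which was not tested.

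Ctsf was the only gene of the 10 that fell. It encodes a papain-type protease found in many tissues, and its levels were 8.04 to 8.24 (median 8.17) in sh Grb14 livers and 8.81 to 8.95 (median 8.85) in sh scramble livers. All 6 sh Grb14 mice lay below all sh scramble mice. The gene fell by 0.72 on the log2 scale (SE 0.048), 1.65-fold lower (limma adjusted p = 8.87e-10).

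Of Ctsc, Ctsz and Ctsh, which encode exopeptidases, Ctsc and Ctsz rose and Ctsh did not pass the test. Ctsc encodes dipeptidyl peptidase I, which activates serine proteases of immune granules by removing an N-terminal dipeptide. Its levels were 12.51 to 12.70 (median 12.64) in sh Grb14 livers and 11.17 to 11.72 (median 11.44) in sh scramble livers. The groups did not overlap, and the sh Grb14 mice were the tighter group, with SDs of 0.072 against 0.20. The log2 difference was 1.15 (SE 0.074), or 2.22-fold (limma adjusted p = 5.32e-10).

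Ctsz, a carboxypeptidase, had levels of 11.54 to 11.71 (median 11.63) in sh Grb14 livers and 11.17 to 11.33 (median 11.23) in sh scramble livers. It differed by less than Ctsc but without overlap, by 0.39 on the log2 scale (SE 0.040), or 1.31-fold (limma adjusted p = 1.98e-07).

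Ctsh, an aminopeptidase, had levels of 11.55 to 11.77 (median 11.65) in sh Grb14 livers and 11.51 to 11.74 (median 11.68) in sh scramble livers. The groups overlapped almost fully, and the log2 difference was 0.013, with a 95% interval from -0.087 to 0.11 (limma adjusted p = 0.821, exact permutation p = 0.803). With each array centred on the median of the genes tested, a scaling that moved the median difference of all genes to -0.25, the value of Ctsh was -0.13 (adjusted p = 0.0225, range over all alternatives 0.0225 to 0.986). Under that scaling the other 9 genes kept their direction and passed the test, Ctsa with 0.12 and Ctsz with 0.24.

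**Figure D2:**
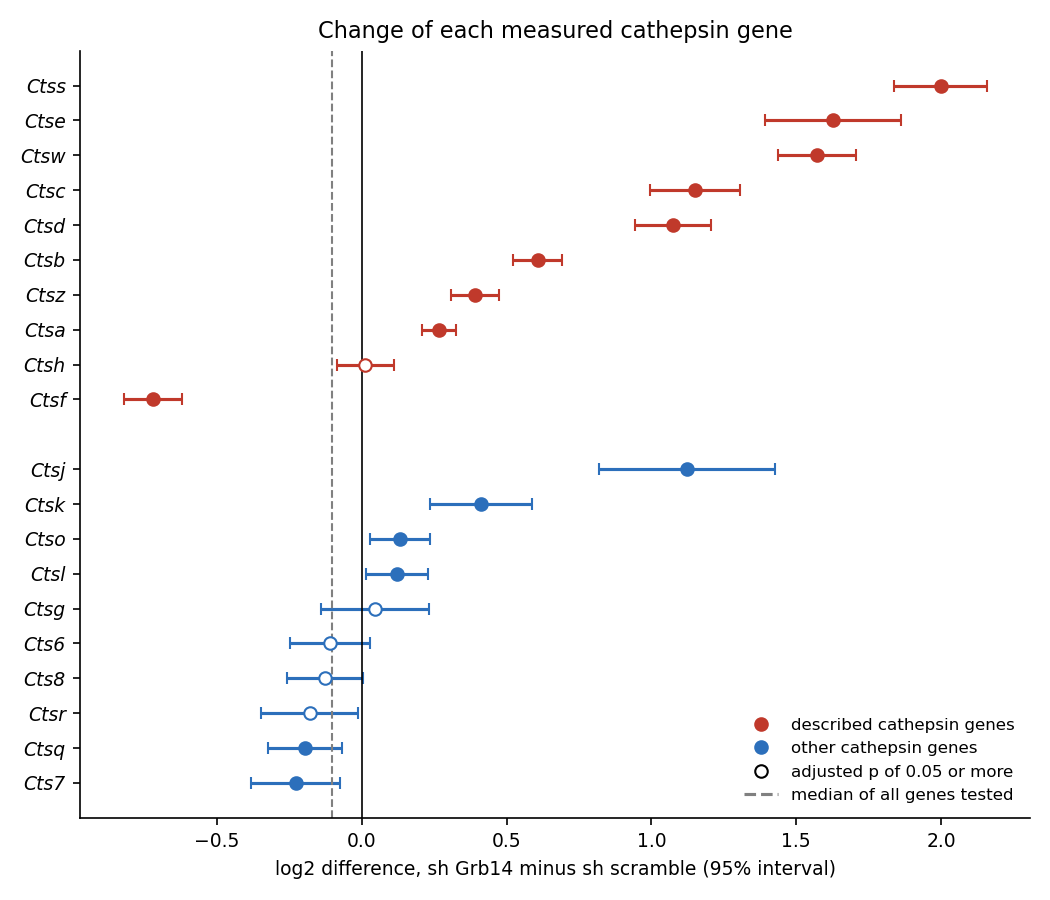
Points give the log2 difference, sh Grb14 minus sh scramble, of each measured cathepsin gene with its 95% interval from the limma fit, for the 10 described genes (red) and 10 others (blue). Open points did not pass the test, and the dashed line is the median of all genes at -0.10. The red points run from 1.998 for Ctss to -0.72 for Ctsf, while of the blue points only Ctsj lies above 1.

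The sizes of the differences were compared between neighbours in their order, as the log ratio of 2 genes in each mouse, over 9 pairs tested exactly. Ctss and Ctsw, around Ctse with its wide spread, were added as a pair, and p-values were adjusted over these 10. The comparison was added after the values were seen. Ctss stood above Ctse by 0.37 (SE 0.18), which did not pass (adjusted exact permutation p = 0.0893), and Ctse above Ctsw by 0.057 (SE 0.15, adjusted exact p = 0.734). The Ctsw difference exceeded that of Ctsc by 0.42 (SE 0.072, adjusted exact p = 0.00433). Ctsc and Ctsd differed by 0.076 (SE 0.098, adjusted exact p = 0.532). Ctsd exceeded Ctsb by 0.47 (SE 0.057) and Ctsb exceeded Ctsz by 0.22 (SE 0.031), both at an adjusted exact p of 0.00433. Ctsz exceeded Ctsa by 0.13 (SE 0.039, adjusted exact p = 0.0278), Ctsa exceeded Ctsh by 0.25 (SE 0.061, adjusted exact p = 0.0108), and Ctsh exceeded Ctsf by 0.73 (SE 0.051, adjusted exact p = 0.00433). Ctss exceeded Ctsw by 0.43 (SE 0.083, adjusted exact p = 0.00433), with log ratios of 3.01 to 3.28 in sh Grb14 mice and 2.45 to 2.99 in sh scramble mice that did not overlap. The place of Ctse between them was therefore not resolved, nor was the order of Ctsc and Ctsd. Probe sets can compress changes to unequal degrees, so unequal log ratios are unequal changes of signal.

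**Figure D3:**
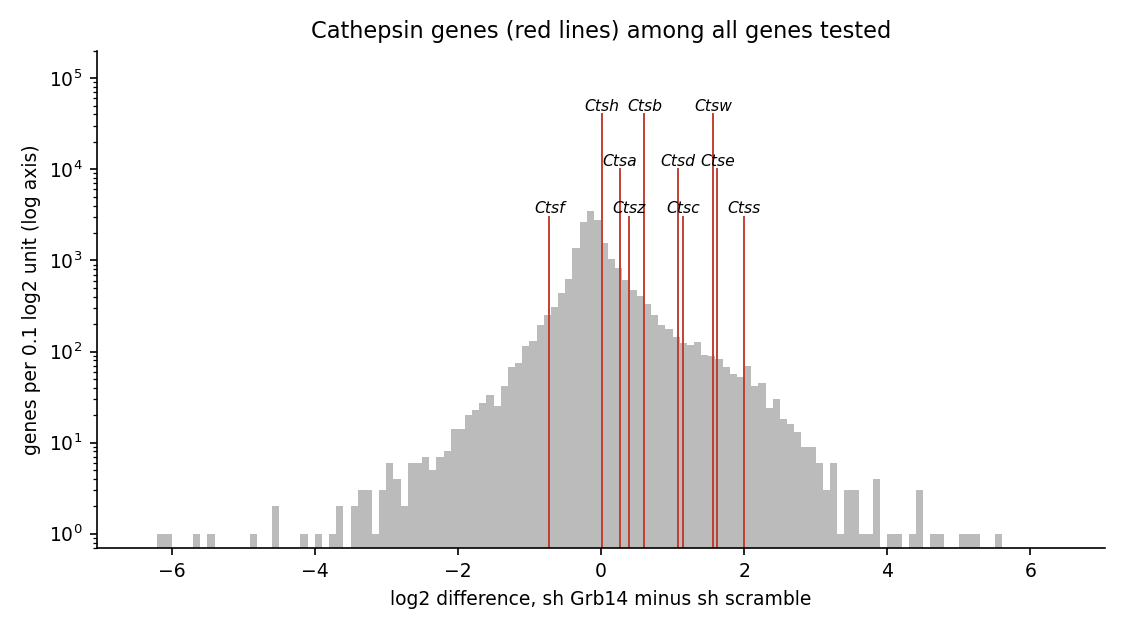
Grey bars count all 19938 genes by log2 difference, sh Grb14 minus sh scramble, on a log axis, and red lines mark the 10 cathepsin genes. Ctss, Ctse and Ctsw lie in the upper flank of the distribution, and Ctsh lies near its centre.

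Of the cathepsin genes outside the 10, 10 were measured, and 4 were higher, 2 lower and 4 not past the test, with a median log2 difference of -0.032. Over all 20 measured cathepsin genes 12 were higher and 3 lower. Of all genes tested, 25.8% were higher and 39.5% lower. Ctsk, the collagen-degrading cathepsin of osteoclasts, had levels of 6.51 to 7.00 (median 6.87) in sh Grb14 livers and 6.26 to 6.57 (median 6.38) in sh scramble livers. It rose by 0.41 (SE 0.083, limma adjusted p = 0.000406), although the groups overlapped.

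Ctsl, a widely expressed lysosomal endopeptidase, differed by 0.12 (SE 0.051, limma adjusted p = 0.0428), and Ctso by 0.13 (SE 0.049, limma adjusted p = 0.0254). Both calls were lost when arrays were centred on their medians (adjusted p = 0.0951 and 0.105), and centring on the genes tested turned the values to -0.024 and -0.014. That of Ctsl was also lost without sh Grb14 mouse 1, 2 or 3 or sh scramble mouse 3, 4, 5 or 6 (adjusted p between 0.0608 and 0.0960), and that of Ctso without sh Grb14 mouse 1 or 6 or sh scramble mouse 1 or 2 (adjusted p between 0.0504 and 0.0664). Without the intensity trend the Ctsl call was lost as well (limma adjusted p = 0.0701). Ctsg, the serine protease of neutrophil granules, had a difference of 0.047 (SE 0.088, limma adjusted p = 0.647).

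The other 6 measured genes belong to the rodent placental cathepsin cluster. Ctsj had levels of 5.47 to 6.57 (median 6.19) in sh Grb14 livers and 4.88 to 5.11 (median 4.99) in sh scramble livers. The sh scramble mice lay below the lower quartile of their arrays, so no fold is given for the log2 difference of 1.12 (SE 0.14, limma adjusted p = 3.25e-06). Ctsq and Cts7 were lower by small amounts at such low levels, with log2 differences of -0.20 (SE 0.061) and -0.23 (SE 0.073). Ctsr, Cts6 and Cts8 had differences of -0.18, -0.11 and -0.13 that did not pass. That of Ctsr passed without sh Grb14 mouse 4 or 5 or sh scramble mouse 4 or 5 (adjusted p between 0.0121 and 0.0471), and that of Cts6 without sh scramble mouse 5 (adjusted p = 0.0128). The members of this cluster are close in sequence, so their probe sets may share signal. Ctsm and Cts3 share their probe sets and were not tested.

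Among the inhibitors of cathepsins, Cstb, the cytosolic cystatin B, had levels of 11.83 to 12.08 (median 12.03) in sh Grb14 livers and 10.46 to 10.78 (median 10.62) in sh scramble livers. It rose by 1.39 (SE 0.055), or 2.61-fold (limma adjusted p = 1.51e-12). Cst7, the leukocystatin of immune cells, rose by 1.05 (SE 0.077), and Serpinb6a, an intracellular serpin, by 1.83 (SE 0.084). Fetub, a cystatin-related plasma protein of hepatocytes, fell by 1.28 (SE 0.077), while Ahsg, its relative fetuin A, had a difference of -0.0064 (SE 0.032, limma adjusted p = 0.867). Ahsg averaged 13.55 in each group, near the top of the scale, where differences can be compressed. The 12 measured inhibitor genes divided into 4 that rose, 3 that fell and 5 that missed the threshold, against 25.8% higher and 39.5% lower of all genes, and their median was 0.0093. These calls are not read as a feature of the list. Cst3, the secreted cystatin C, named after the values were seen, rose by 0.45 (SE 0.041).

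Other lysosomal hydrolases were mostly higher. Lgmn, the asparaginyl endopeptidase that processes cathepsin precursors, had levels of 12.10 to 12.42 (median 12.30) in sh Grb14 livers and 10.39 to 10.77 (median 10.49) in sh scramble livers. It rose by 1.74 (SE 0.069), or 3.33-fold (limma adjusted p = 1.51e-12). Gla, the alpha-galactosidase, rose by 1.77 (SE 0.056), Ppt1, a thioesterase that removes palmitate, by 1.05 (SE 0.045) and Asah1, the acid ceramidase, by 0.96 (SE 0.052). Acp5, the tartrate-resistant acid phosphatase, had a difference of 0.016 (SE 0.035, limma adjusted p = 0.691). In all, 24 of 34 measured hydrolases and activators rose, 5 fell and 5 missed the threshold, and the median was 0.35 beside -0.10 over all genes. Of all genes, 25.8% were higher and 39.5% lower, and these shares also stand beside the counts of the lists that follow.

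Membrane proteins of the lysosome were more mixed. The tetraspanin gene Cd63 rose by 2.45 (SE 0.14), Laptm5, of leukocyte lysosomes, by 2.14 (SE 0.070), Cd68, a glycoprotein of macrophage lysosomes, by 1.94 (SE 0.065) and Slc29a3, a nucleoside transporter, by 0.92 (SE 0.053). Cd164, a sialomucin, had a difference of -0.0055 (SE 0.033). The sh scramble levels of Cd63, 6.12 to 6.82, lay below the array medians, where differences can be understated. Among 15 membrane protein genes measured, 7 were higher, 4 lower and 4 not past the test (median 0.060).

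Subunits of the V-ATPase, the proton pump that acidifies lysosomes, differed most in Atp6v0d2, a subunit form of osteoclasts and macrophages. Its levels were 9.33 to 10.29 (median 9.76) in sh Grb14 livers and 6.56 to 6.94 (median 6.70) in sh scramble livers, and it rose by 3.004 (SE 0.13), or 8.02-fold (limma adjusted p = 4.17e-12). The sh scramble levels of Atp6v0d2 lay below the array medians, where differences can be understated. Atp6v1b2, Atp6v0e and Atp6ap2 rose by 0.91, 0.66 and 0.51, whereas Atp6v1f had a difference of 0.0058 (limma adjusted p = 0.909). The 16 subunit genes measured had a median of 0.16, with 9 higher, 2 lower and 5 not past the test.

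Among genes that tag and sort cathepsin precursors, Igf2r, the large mannose 6-phosphate receptor, rose by 1.04 (SE 0.061), Gnptab, which encodes subunits of the enzyme that starts the tag, by 0.87 (SE 0.045), and Ap1s1, a subunit of the clathrin adapter AP-1, by 0.75 (SE 0.052). Grn, which encodes progranulin, a protein that accompanies lysosomal enzymes, rose by 0.91 (SE 0.035). Gga3, a sorting adapter, had a difference of 0.00035 (SE 0.060, limma adjusted p = 0.996). Calls among the 14 sorting genes measured were 7 higher and 2 lower, 5 missed the threshold, and the median was 0.11.

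The genes that fell in these lists are named here after their values were seen. Dpp7, a dipeptidyl peptidase, fell by 0.61 (SE 0.053), and Gaa, Ids, Smpd1 and Naglu, hydrolases of glycogen, glycosaminoglycans and sphingomyelin, fell by 0.11 to 0.25. Among membrane proteins Slc17a5, a sialic acid exporter, fell by 0.69 (SE 0.037), Ctns, the cystine exporter, by 0.58 (SE 0.062), Mcoln1, a cation channel, by 0.53 (SE 0.047) and Lamp2 by 0.18 (SE 0.042). Gnptg, the remaining subunit of the enzyme that starts the tag, fell by 0.62 (SE 0.041), against the rise of Gnptab, and Gga2 fell by 0.23 (SE 0.049). The pump subunits Atp6v0a1 and Atp6v1g1 fell by 0.34 (SE 0.043) and 0.14 (SE 0.047). The inhibitor genes Kng1 and Cst6 fell by 0.26 (SE 0.033) and 0.20 (SE 0.075), and the Cst6 call was lost without sh Grb14 mouse 1, 3 or 6 or sh scramble mouse 2 or 6 (adjusted p between 0.0553 and 0.0741).

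Partners of single cathepsins were examined as well. All 7 measured genes of class II presentation, the setting in which Ctss acts, rose, by 1.73 to 2.45 with a median of 2.09. H2-DMa, of the peptide editor, rose by 2.45 (SE 0.084), Ifi30, a lysosomal thiol reductase, by 2.32 (SE 0.060), H2-Ab1, a class II chain, by 2.18 (SE 0.096), Cd74, the invariant chain itself, by 2.09 (SE 0.093), and Ciita, the class II regulator, which had the smallest difference, by 1.73 (SE 0.065). The difference of Ctss, 1.998, lay within this range.

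Among granule serine proteases, which Ctsc activates, Gzmb, granzyme B, had levels of 9.85 to 10.32 (median 10.11) in sh Grb14 livers and 6.39 to 6.80 (median 6.66) in sh scramble livers, a rise of 3.46 (SE 0.087), or 11.0-fold (limma adjusted p = 9.94e-15). Its sh scramble levels, and those of Gzma (5.83 to 6.21), lay below the array medians, where differences can be understated. Gzmk rose by 1.33 (SE 0.085) and Gzma by 1.29 (SE 0.079), while Gzmm fell by 0.27 (SE 0.071) and Tpsb2, a mast cell tryptase named after its value was seen, by 0.17 (SE 0.062). The mast cell protease Mcpt4 had a difference of 0.024 (SE 0.070, limma adjusted p = 0.771). In total 3 of the 12 granule protease genes were higher and 2 lower, 7 missed the threshold, and the median was -0.079, while 25.8% of all genes were higher and 39.5% lower. The share that was higher is close to that of all genes. The 2 lower calls became 1, that of Gzmm, without sh Grb14 mouse 1, 2, 3 or 6 or sh scramble mouse 1 or 2, and 4 without sh scramble mouse 4.

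**Figure D4:**
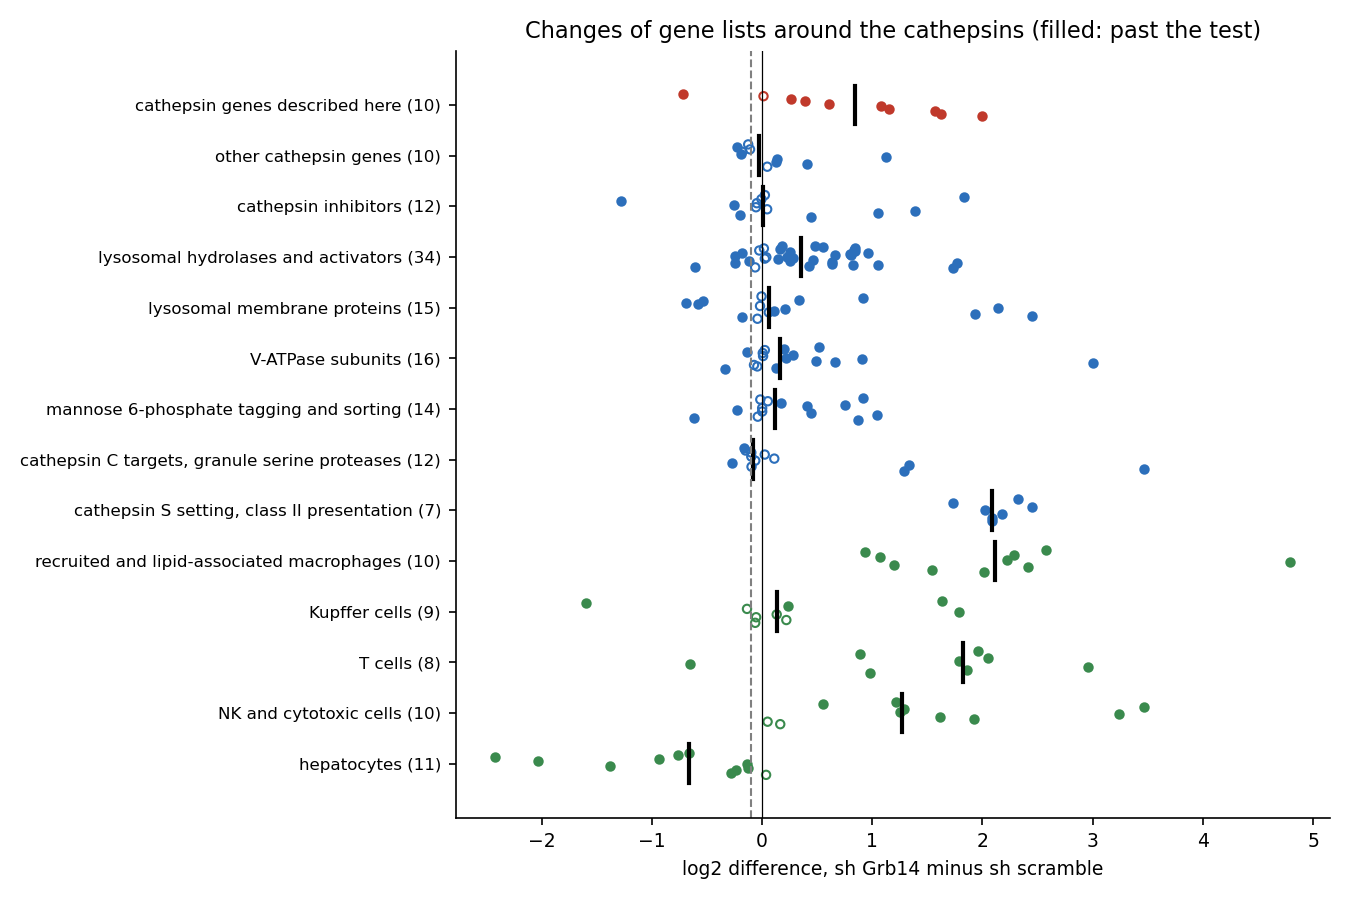
Each point is the log2 difference, sh Grb14 minus sh scramble, of 1 gene of a list (measured genes in brackets), filled where it passed the test. Black bars are list medians and the dashed line is the median of all genes. The lists of class II presentation and of recruited and lipid-associated macrophages lie to the right of 0 throughout. Kupffer cell markers lie on both sides, hepatocyte markers mostly to the left, and the cathepsin genes spread between -0.72 and 1.998.

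Markers of immune and other cell types were examined beside the cathepsin genes. The counts of each marker list stand beside 25.8% higher and 39.5% lower of all genes. All 10 measured markers of recruited and lipid-associated macrophages were higher, with a median of 2.12, and their mean level per mouse was 9.54 to 9.91 in sh Grb14 livers and 7.58 to 7.87 in sh scramble livers. Gpnmb, a glycoprotein of lipid-laden macrophages, rose by 4.79 (SE 0.15) and Fcgr4, an Fc receptor, by 2.58 (SE 0.11). Gpnmb lay at 6.20 to 6.81 in sh scramble livers, below the array medians, where differences can be understated. In whole liver, more cells of a type and more RNA per cell cannot be told apart, and the part of these cells in the cathepsin values was not tested.

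Resident Kupffer cell markers were less uniform, with 3 of 9 higher, 1 lower and 5 not past the test, and a mean level of 9.15 to 9.29 in sh Grb14 livers and 8.85 to 9.13 in sh scramble livers. With 25.8% of all genes higher, the share of higher calls is not read as a feature of this list. Cd5l and Adgre1, which recruited macrophages can also express, rose by 1.79 (SE 0.079) and 1.64 (SE 0.080). The defining markers Clec4f and Timd4, named after the values were seen, had differences of -0.063 (SE 0.098) and -0.054 (SE 0.063), neither past the test, although Timd4 was at -0.20 (adjusted p = 0.00574) with arrays centred on the genes tested. C6, a complement component named for being the one lower marker, fell by 1.60 (SE 0.082).

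Beside Ctsw, 7 of 8 measured T cell markers were higher and 1 lower, with a mean level of 8.42 to 8.72 in sh Grb14 livers and 7.04 to 7.22 in sh scramble livers. Cd3g, of the T cell receptor complex, rose by 2.95 (SE 0.076) and the CD8 chain gene Cd8b1 by 2.05 (SE 0.072), while Cd4, also found on other cells and named for being the one lower marker, fell by 0.66 (SE 0.053). Of 10 NK and cytotoxic markers 8 were higher and 0 lower, at 7.69 to 7.92 in sh Grb14 livers and 6.24 to 6.36 in sh scramble livers, with Nkg7, a cytotoxic granule protein, higher by 3.24 (SE 0.088). Gzmb, described above, is the marker of this list with the largest difference. The NK receptor genes Ncr1 and Klrb1c, named after the values were seen, did not pass the test. Their differences were 0.16 (SE 0.081, limma adjusted p = 0.0833) and 0.050 (SE 0.058, limma adjusted p = 0.457). Klrb1c averaged 5.38 in sh Grb14 livers and 5.33 in sh scramble livers, below the lower quartiles. Neither gene was part of the later checks on single genes. The part of T cells and NK cells in the Ctsw value was not tested.

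Beside Ctse and Ctsc, 6 of 10 dendritic cell markers and 8 of 10 neutrophil markers were higher and 0 lower in either list. The dendritic cell markers had a mean level of 7.63 to 7.80 in sh Grb14 livers and 7.00 to 7.18 in sh scramble livers, and the neutrophil markers 7.31 to 7.76 in sh Grb14 livers and 6.28 to 6.52 in sh scramble livers. Clec9a and Xcr1, of cross-presenting dendritic cells, rose by 2.23 (SE 0.10) and 1.85 (SE 0.095). The 4 dendritic cell markers not past the test were Ccr7 (0.20), Itgae (0.12), Zbtb46 (-0.12) and Cd209a (-0.19). These 4 were named after the values were seen and were not part of the later checks on single genes. The neutrophil genes Cxcr2 and Ngp rose by 2.36 (SE 0.11) and 2.27 (SE 0.28). Cxcr2 lay at 5.02 to 5.52 in sh scramble livers, below the lower quartiles, so the size of its difference is uncertain. Ngp ranged from 5.73 to 7.35 in sh scramble livers, and its median of 5.94 was below the array medians, where differences can be understated. B and plasma cell markers were higher in 5 of 8 and lower in 1, with Cr2 at 1.503 (SE 0.092), from sh scramble levels around the lower quartiles (5.55 to 5.90), and Cd79b at 0.40 (SE 0.082). Erythroid cells also express Ctse, and of 4 measured erythroid markers 1 was higher and 2 lower, with Slc4a1 at 1.28 (SE 0.10) and Alas2 at -1.73 (SE 0.087). The part of these cell types in the values of Ctse and Ctsc was not tested.

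Hepatocyte markers were lower in 10 of 11 and higher in 0, at a mean level of 12.07 to 12.47 in sh Grb14 livers and 13.10 to 13.19 in sh scramble livers. Cyp7a1, the rate-limiting enzyme of bile acid synthesis, fell by 2.42 (SE 0.21) and Hal, of histidine breakdown, by 2.04 (SE 0.13). Among stromal markers, 6 of 9 genes of stellate cells and fibroblasts were higher and 2 lower, with Acta2, of activated stellate cells, at 2.46 (SE 0.11) and Col1a1, a collagen chain, at 1.76 (SE 0.066). The 2 lower ones, Reln and Lrat, fell by 0.35 (SE 0.098) and 0.33 (SE 0.11). They were named after the values were seen and were not part of the later checks on single genes. Of 8 sinusoidal endothelial markers 3 were higher and 5 lower, with Lyve1 at 1.14 (SE 0.075) and Clec4g at -0.85 (SE 0.057). Cholangiocyte markers were higher in 2 of 6 and lower in 0, Epcam at 0.48 (SE 0.082) and Cldn7 at 0.21 (SE 0.067), and the value of Cldn7 did not pass with arrays centred on the genes tested (0.066, adjusted p = 0.306). With 25.8% of all genes higher, the cholangiocyte calls are not read as a feature of that list.

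Profiles over the 12 arrays were compared by the root mean square difference after each gene was centred on its own mean. Closest to Ctss were Cybb (0.069), Fcgr3 (0.078) and Alox5ap (0.079). Ctse had no gene as near, with Rasgrp1 (0.16), Lgals1 (0.17) and H1f5 (0.17) first. Aida (0.073), Smpdl3b (0.074) and Abcc1 (0.076) were closest to Ctsw, and Ppib (0.041), Serbp1 (0.044) and Ppa1 (0.045) to Ctsh. This distance includes the difference between the groups, which was 1.93 for Cybb, 1.92 for Fcgr3 and 2.06 for Alox5ap. It also includes the spread within groups, which was wide for Ctse. Closeness is therefore no measure of genes that vary together among mice.

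Deviations of the 10 genes from their group mean were at most 0.33 on the log2 scale, for Ctse in sh scramble mouse 1. In sh Grb14 mouse 4, 9 of the 10 genes lay above the mean of the group, and in mouse 2 of that group 2 did. In sh scramble mice 5 and 6, 8 of the 10 genes lay above their group mean. Of 45 gene pairs, 31 had a positive Pearson r over the 6 sh Grb14 mice and 28 over the 6 sh scramble mice, with a median of 0.34 in each group. Over these 90 relations none passed adjustment (smallest adjusted exact permutation p = 0.375). With 6 mice the smallest exact p is 0.00139, which a single pair would carry to 0.125 after adjustment, so this says little on whether the genes vary together. Unadjusted, 5 pairs in sh Grb14 livers and 4 in sh scramble livers had an unadjusted exact p under 0.05.

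Ctsb and Ctss had the highest r in sh Grb14 livers, 0.94 (exact permutation p = 0.00556, adjusted 0.375), with a Spearman rho of 0.94 (exact p = 0.0167, adjusted 0.438) and an r of 0.92 without the 2 mice farthest from the Ctsb median. In sh scramble livers the same pair had an r of 0.90 (exact p = 0.0181, adjusted 0.375) and a rho of 0.94 (exact p = 0.0167, adjusted 0.438), and r was 0.91 without the 2 farthest mice. The highest r there, 0.94 between Ctsd and Ctsh (exact p = 0.00972, adjusted 0.375, and rho 0.83, exact p = 0.0583, adjusted 0.438), was 0.44 without the 2 mice farthest from the Ctsd median. With so few mice left, this does not settle how far the relation depended on those 2.

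**Figure D5:**
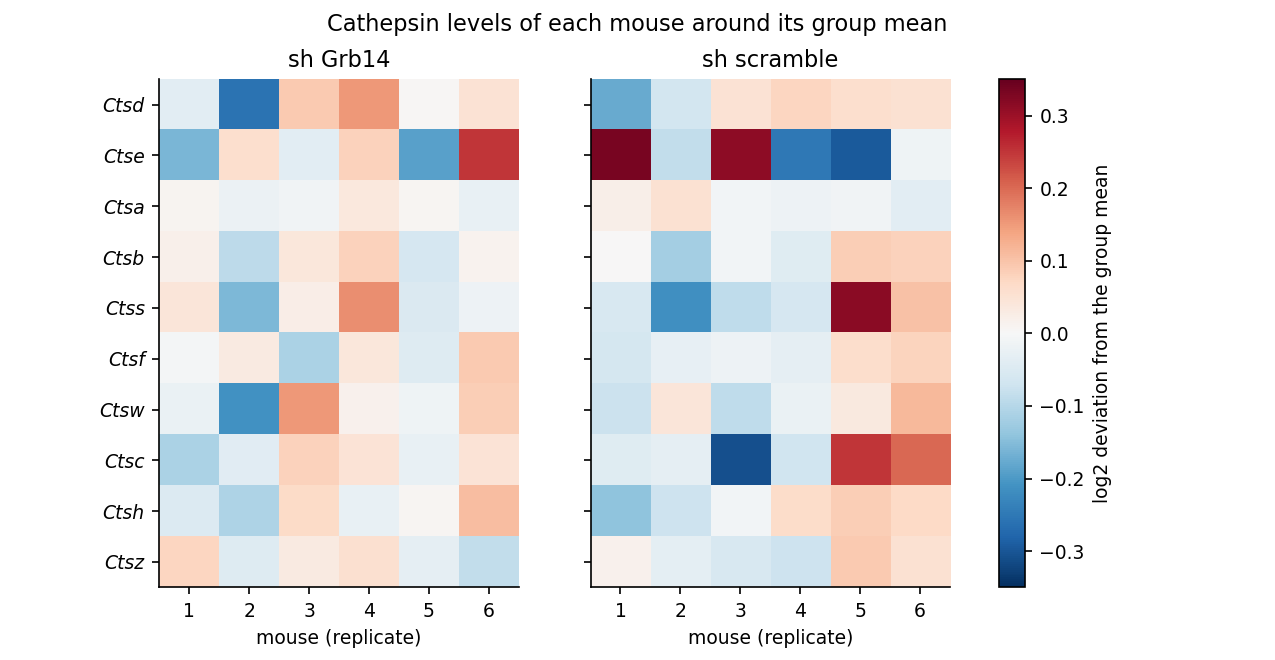
Colours give the log2 deviation of each cathepsin gene from its group mean in every mouse, red above and blue below, for 6 sh Grb14 mice (left) and 6 sh scramble mice (right). Ctse has the strongest colours in sh scramble mice, Ctsa is nearly white in both groups, and sh Grb14 mouse 2 is mostly blue.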

How the data were processed

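Per the labels' protocols, Trizol RNA of 12 livers was labelled with biotin from 100 ng for Affymetrix whole-transcript arrays. The deposited values are log2 expression per probe set. RMA and Partek are named in the submitters' processing notes without version, role or order. Settings, chip description file and genome build of the probes are not given in the sources used here, and the number of arrays limits the precision.

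Of 35556 probe sets, 21789 had 1 gene symbol in the platform annotation, 1621 several and 12146 none listed. Entrez identifiers of 21698 matched RefSeq GRCm38.p6, used for names, and 0 symbols changed. A gene took its brightest probe set, which left 19938 genes. Tests across genes used limma 3.58.1 under R 4.3.3, with lmFit and eBayes with an intensity trend on all 12 arrays and no covariate, with Benjamini-Hochberg adjustment over all genes and a threshold of 0.05. The fit was tested on simulated data. Exact permutation tests were two-sided over the 924 assignments of mice to 2 groups of 6. Intervals are 95%.

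The members, 8 pathway lists and 12 marker lists were chosen with earlier results of these data known. Named are Grb14, the 10 genes, all other measured cathepsins, in each pathway list the 4 largest absolute differences past the test and the smallest one, in each marker list the 2 largest, and the 3 closest profiles of the members with the 3 largest differences and the smallest. Genes added later are marked. Each of the 10 genes had 1 probe set, so a planned comparison of probe sets gave nothing. Alternatives were other scalings, a filter on level, the mean of probe sets, no trend, array weights and leaving out each mouse. Scaling on the genes tested was added after the data were seen.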

Additional observations from a re-analysis of the deposited data

Results flagged for a closer look

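Values of 115 named genes, Grb14 and the 10 cathepsin genes included, were searched in each group for a mouse that lay far from the other 5 (Dixon's test), 230 groups of 6 mice in all. Chance alone marks about 1 in 20 groups, and 10 were marked, 0 of them among the 20 groups of the 10 cathepsin genes. In sh Grb14 mouse 1 the value was lowest and apart for 5 genes: Ppt1 at 11.56 (next mouse 11.67), Gzmk at 8.52 (next 8.84), H2-DMa at 11.01 (next 11.22), H2-Ab1 at 12.33 (next 12.51) and Cd74 at 12.18 (next 12.36). Acp5 was apart at 11.40 in sh Grb14 mouse 4 (next 11.28). Gpnmb was lowest at 10.56 in sh Grb14 mouse 2 (next 11.22). H2-Ab1 was highest at 10.86 in sh scramble mouse 5 (next 10.38). Among genes named for having fallen, Atp6v0a1 was highest at 10.65 in sh Grb14 mouse 1 (next 10.51), and Kng1 was highest at 13.42 in sh scramble mouse 5 (next 13.32). In each of these cases except Acp5 the groups still did not overlap.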

How the results depend on the processing

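Over 19 alternatives Grb14 stayed lower and past the test (log2 difference -2.05 to -1.86). Of 189 recomputed values of the 10 cathepsin genes, 188 stayed on their side of the threshold, and 5 changed sign, all of Ctsh. Apart from the scaling below, these were near 0 and not past the test, without sh Grb14 mouse 3 or 6 or sh scramble mouse 1 or 2 (-0.015 to -0.0011). Leaving out any 1 mouse left 8 genes higher and 1 lower. Without genes below the median level 7 were higher, because Ctsw was filtered out. Centring arrays on the median of the genes tested, an added scaling, made the lower count 2, since Ctsh had -0.13 (adjusted p = 0.0225). It moved the median of all genes from -0.10 to -0.25 and left 23.0% of all calls higher, against 39.5%. It also turned Ctsl to -0.024, Ctso to -0.014, Alb to -0.11, Acp5 to -0.13, Atp6v1f to -0.14, Gga3 to -0.15 and Ppa1 to -0.10. Under it lower calls became 6 of the inhibitors (3 before), 10 of the hydrolases (5), 7 of the membrane proteins (4), 6 of the V-ATPase subunits (2), 6 of the sorting genes (2), 7 of the granule proteases (2) and 5 of the other cathepsins (2), whose higher calls became 2 (4). Other cathepsins had 2 higher and 4 lower calls with arrays centred on their medians, 2 higher without sh Grb14 mouse 1, and 4 lower without sh scramble mouse 5. With genes above the median level alone they had 2 higher and 0 lower, and the granule proteases 0 lower. The genes that carried the other calls were filtered out and not tested there. Among 1955 values of the other named genes, 29 lost and 21 gained a call, and 45 changed sign. Of the 45, 43 belong to genes not past the test in the first place, and the other 2 are the values of Ctsl and Ctso above. The cause of these moves was not tested beyond the scaling itself. Bright levels can be compressed and dim ones lie near background, and both can understate differences. No paired analysis was possible because the labels give no replicate numbers shared between the groups.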
